A study of Caenorhabditis elegans with 6 samples.

Results

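The flp genes encode FMRFamide-like peptides, a large family of neuropeptides in Caenorhabditis elegans, most of which end in an amidated Arg-Phe. They were chosen as all genes in the count files whose symbol is flp- followed by digits alone, and 31 genes met this rule among 46726 gene identifiers. The members were flp-1 to flp-28, flp-32, flp-33 and flp-34. Their RNA was measured in touch neurons sorted from whole animals at the L4 larval stage, in 3 libraries from mec-8(e398) mutants and 3 libraries from wild type. MEC-8 is the worm homologue of the RNA-binding splicing factor RBPMS, and mec-8 mutants are insensitive to gentle touch. In both genotypes the cells were sorted by GFP driven from the mec-4 promoter, which is active in touch neurons. The labels give the wild-type strain as N2, which carries no GFP, whereas the study's methods describe sorting mec-4p::GFP animals and using N2 to set the gates. Each library was a bulk population of sorted cells, so fewer cells of a type and less RNA per cell cannot be told apart.

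FLP peptides are made as longer propeptides that are cut by proprotein convertases such as EGL-3, trimmed by the carboxypeptidase EGL-21, amidated and packed into dense-core vesicles. They are released from neurons and act mainly on G protein-coupled receptors of other cells, often at a distance. Most flp genes are made in small, partly overlapping sets of neurons, so that flp transcripts are often used as markers of neuron type. FLP-20 is the member best known from touch neurons, from which it acts through the receptor FRPR-3 to raise arousal after mechanical stimulation. FLP-8 has been reported in the touch neuron PVM and in URX, and flp-4 in the touch neuron AVM and in the nociceptor PVD.

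The depth was between 22705762 and 33094142 reads on genes in the mec-8 libraries and between 15334872 and 27882591 in the wild-type libraries. All 10 touch neuron markers (among them mec-4, mec-7 and mec-17) had counts in all 6 libraries, with summed levels of 11523, 1026 and 1462 CPM (counts scaled to 1000000 reads on genes) in mec-8 replicates 1, 2 and 3, against 14706, 1620 and 4833 CPM in wild-type replicates 1, 2 and 3. Transcript of mec-8 itself was at 23.4, 6.48 and 2.60 CPM in the mec-8 libraries and at 35.3, 8.64 and 9.33 CPM in the wild-type libraries, and the groups overlapped. Muscle RNA was present throughout, with myo-3 and unc-54 summing to between 1132 and 25205 CPM in mec-8 libraries and between 2176 and 19541 CPM in wild-type libraries. The libraries stood apart in ways that genotype does not describe. Of the reads counted on genes, on no gene or as ambiguous between genes, the ambiguous ones were 11.1% in wild-type replicate 1, against between 2.62% and 3.04% in the other 5 libraries, and those on no gene were 3.57%, against between 0.39% and 1.44%. That library also had 70024247 alignments set aside as not unique, against between 1922629 and 11988379 in the others. It was the highest library for many flp genes, and the part of these reads in their levels was not tested. The mec-8 replicate 3 library had the fewest genes with a count, 13613, although wild-type replicate 1 had only 13747.

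The 31 genes lie on all 6 chromosomes, with 2 on I, 3 on II, 5 on III, 5 on IV, 3 on V and 13 on X. The share on X was 41.9%, where 13.7% of the 19985 protein-coding genes of the WBcel235 annotation lie. In that annotation 19 of the 31 overlap no other gene and 12 do, mostly on the opposite strand, as flp-1 does with daf-10, flp-19 with abl-1 and flp-2, flp-3 and flp-28 with W07E11.1. Strand use in the counting is not given in the sources used here, so the levels of these 12 may include reads of the partner, or lack reads set aside as ambiguous. Of the genes on which the following results rest, flp-20 (WBGene00001463, chromosome X, 9349276 to 9349894, minus strand), flp-5 (WBGene00001448, chromosome X, 8528250 to 8531076, plus strand), flp-9 (WBGene00001452, chromosome IV, 12754558 to 12757570, minus strand) and flp-25 (WBGene00010575, chromosome III, 9361528 to 9365380, plus strand) overlap no other gene. In contrast, flp-8 (WBGene00001451, chromosome X, 14881419 to 14882267, plus strand) overlaps the noncoding gene F31F6.11 on the other strand.

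All 31 flp genes had at least 1 count somewhere, and 27 had at least 10 counts in at least 2 libraries of each genotype. The number with at least 10 counts was 28, 29 and 14 in mec-8 replicates 1, 2 and 3, against 29, 28 and 24 in wild-type replicates 1, 2 and 3. At the other end, flp-23 was a single count in wild-type replicate 3, flp-21 reached at most 0.51 CPM (mec-8 replicate 1), and flp-33 at most 1.60 CPM (wild-type replicate 1). Counts on all flp genes together came to 6156, 8456 and 1911 for mec-8, against 18894, 9987 and 3669 for wild type. A few genes carried most of them, since the 5 members with the most counts in a library held between 55.8% and 79.4% of its flp counts in mec-8 libraries and between 60.5% and 73.2% in wild-type libraries. The member with the most counts was flp-9 in all 3 mec-8 libraries and in wild-type replicate 2, whereas it was flp-8 in wild-type replicate 1 and flp-5 in wild-type replicate 3.

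**Figure D1:**
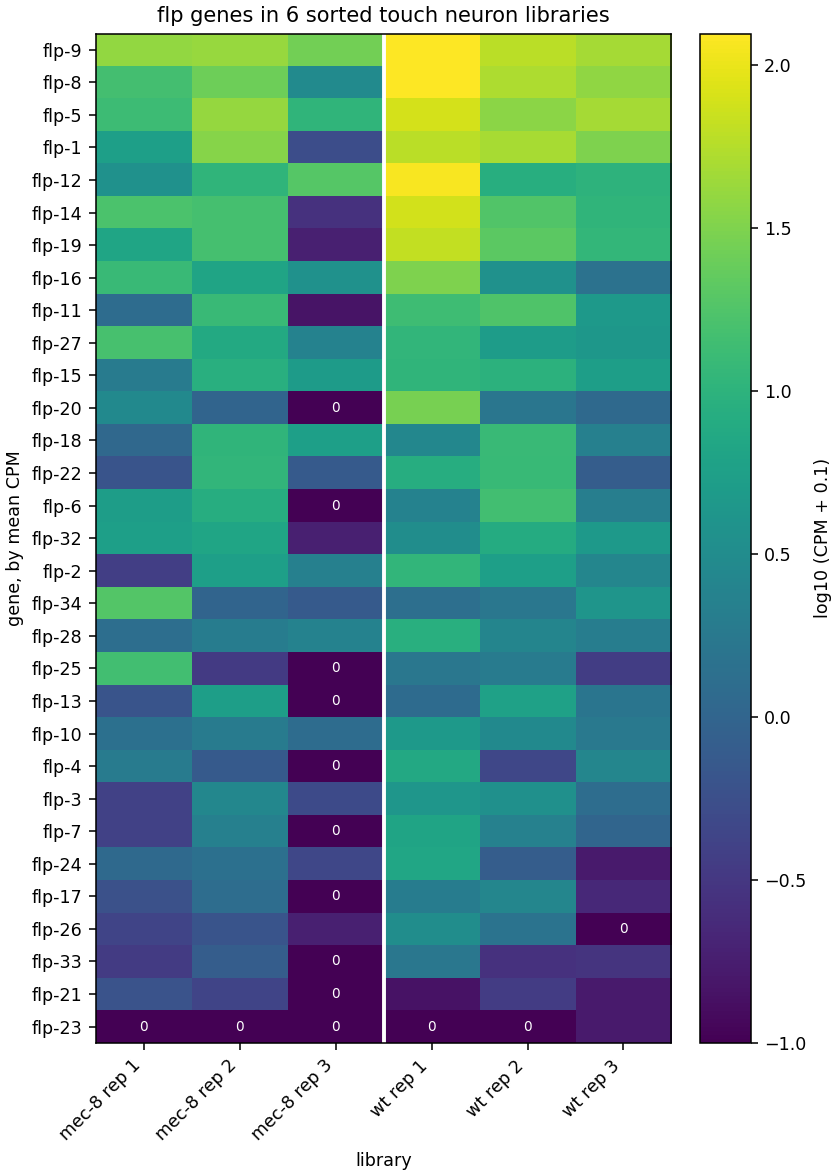
Levels of the 31 flp genes (rows, by mean CPM) in the 3 mec-8 libraries (left) and 3 wild-type libraries (right), as log10 of CPM plus 0.1, with a 0 written where a library had no count. The upper rows are filled in nearly every library, wild-type replicate 1 is the brightest column and mec-8 replicate 3 holds 10 of the zeros.

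The first question was which members were present at a steady level in all libraries. At least 10 counts in every library were found for 13 of the 31 flp genes (41.9%), whereas 34.1% of all 24600 genes with a count reached this. Of these 13, 6 also kept their highest CPM under 10 times their lowest and are called steady here, namely flp-5, flp-9, flp-10, flp-15, flp-27 and flp-28. This is 19.4% of the family, against 22% of all genes with a count, a share near the background. Among genes with at least 10 counts everywhere, the steady share was 46.2% of flp genes and 64.5% of all genes. The gene just inside the limit was flp-5, whose highest level was 7.54 times its lowest, and the gene just outside it was flp-18, at 12.5 times.

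Of the steady members, flp-9 was the highest in the family whether genes were ranked by mean or by median CPM per kilobase of exon, with a mean of 88.8. Its levels were 38.8, 41.1 and 27.4 CPM in mec-8 replicates 1, 2 and 3, against 124, 59.0 and 47.2 CPM in wild-type replicates 1, 2 and 3. Every mec-8 library was below every wild-type library. It overlaps no annotated gene and spanned a 4.52-fold range. The next steady member was flp-5, reported mainly from pharyngeal and other neurons, with a mean of 64.4 CPM per kilobase. It had 13.3, 39.99 and 10.4 CPM in the mec-8 libraries and 78.4, 36.5 and 48.1 CPM in the wild-type libraries, which overlap through mec-8 replicate 2.

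The other 4 steady members had means between 3.26 (flp-10) and 15.2 (flp-15) CPM per kilobase of exon. The levels of flp-15, reported in the phasmid neuron PHA, were 1.84, 8.77 and 4.89 CPM in mec-8 libraries and 10.4, 9.58 and 5.41 CPM in wild-type libraries. For flp-27, 15.4, 7.54 and 2.29 CPM were found in mec-8 libraries and 10.8, 5.06 and 4.30 CPM in wild-type libraries, with replicate 1 highest in both genotypes. For flp-10, whose peptide inhibits egg laying through the receptor EGL-6, the levels were 1.30, 1.82 and 1.15 CPM in mec-8 libraries and 4.49, 2.87 and 1.70 CPM in wild-type libraries. It was the most even member by fold, with a 3.92-fold range. Lastly, flp-28 had 1.21, 1.89 and 2.25 CPM in mec-8 libraries and 8.98, 2.48 and 1.96 CPM in wild-type libraries, so that wild-type replicate 1 alone stood out. In CPM, all of these 4 genes overlapped between the genotypes.

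The steady set depended on what the levels were set against. With flp counts set against 8 pan-neuronal marker genes rather than all genes, 2 members met the same limits, flp-27 and flp-34. The pan-neuronal markers themselves summed to 486, 138 and 82.8 CPM in the mec-8 libraries and to 113, 127 and 71.1 CPM in the wild-type libraries, and unc-104, an axonal kinesin, made up 299 CPM of the sum in mec-8 replicate 1. Leaving out mec-8 replicate 3 raised the number of steady members to 10 and the number with at least 10 counts in every remaining library to 23.

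The gene known from touch neurons, flp-20, was not among the steady members. Its levels were 2.84, 0.89 and 0 CPM in mec-8 replicates 1, 2 and 3, against 28.9, 1.54 and 1.04 CPM in wild-type replicates 1, 2 and 3. A single library, wild-type replicate 1, held 669 of its counts, whereas 43 and 16 came from the other wild-type libraries and 94, 27 and 0 from mec-8. In the library with no count, the limit that a count of 0 allows (3 counts) was 0.13 CPM. The standard deviation of its log2 CPM over the 6 libraries was 3.41, rank 2 of the 31 members after flp-6, and without mec-8 replicate 3 it was 2.04. By CPM per kilobase of exon flp-20 ranked 11 of 31 on the mean of the libraries and 19 of 31 on their median.

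The level of flp-20 was also set against the touch neuron markers of the same library. Per 1000 counts on those markers, flp-20 had 0.25, 0.87 and 0 counts in mec-8 replicates 1, 2 and 3, against 1.96, 0.95 and 0.22 counts in wild-type replicates 1, 2 and 3. The ratio thus differed between libraries rich in the markers. In mec-8 replicate 1 the markers had 11523 CPM and flp-20 had 2.84 CPM, against 14706 and 28.9 CPM in wild-type replicate 1. The sum rests mainly on mec-7, mec-12 and mec-17, at 3295, 5387 and 4992 CPM in wild-type replicate 1. The markers did not all rank these libraries alike. In mec-8 replicate 1 mec-3, mec-4, mec-10, mec-12 and mec-14 were higher than in wild-type replicate 1. There mec-1, mec-7, mec-17 and mec-18 were lower, and mtd-1 was at 293 CPM in both. Per marker count the groups overlapped too.

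**Figure D2:**
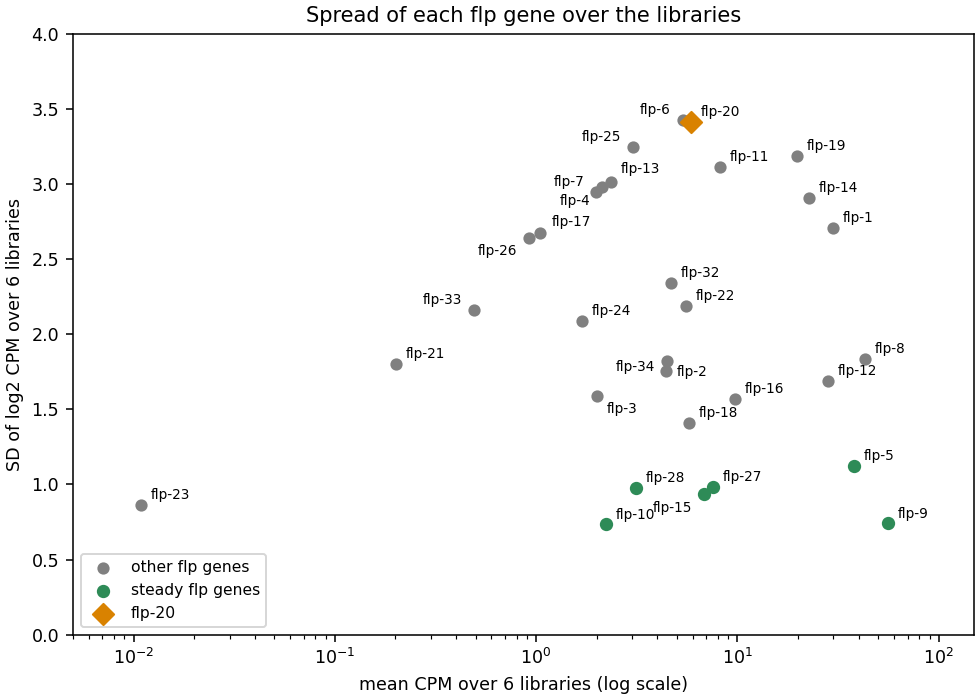
Mean CPM of each flp gene over the 6 libraries (x axis, log scale) against the standard deviation of its log2 CPM over the same libraries (y axis). The 6 steady members (green) lie along the bottom, as does flp-23 with its single count, while flp-20 (orange diamond) lies at the top, at 3.41, beside flp-6.

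Means over the 6 libraries of the 3 members reported from touch neurons were 60.2 CPM per kilobase of exon for flp-8, 11.6 for flp-20 and 2.94 for flp-4. The levels of flp-8 were 14.8, 26.03 and 2.95 CPM in the mec-8 libraries and 125, 51.9 and 37.6 CPM in the wild-type libraries, and every mec-8 library was below every wild-type library. The genotypes overlapped for flp-4, with 1.84, 0.66 and 0 CPM in mec-8 libraries and 7.38, 0.36 and 2.54 CPM in wild-type libraries.

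Members known mainly from other neurons were detected as well. Among genes of the gas-sensing neurons BAG and URX, flp-19 was at 6.53, 15.3 and 0.09 CPM in mec-8 libraries and at 65.5, 20.3 and 11.1 CPM in wild-type libraries, and mec-8 replicate 3 held 2 of its counts. BAG neurons also make flp-17, whose peptide inhibits egg laying through EGL-6. It reached at most 2.55 CPM (wild-type replicate 2) and was at 0 in mec-8 replicate 3. Of the sleep-promoting peptides, flp-11 of the RIS neuron ranged between 0.04 and 12.3 CPM in mec-8 libraries and between 4.63 and 17.4 CPM in wild-type libraries. The ALA genes flp-13 and flp-24, which act in sleep after cellular stress, reached at most 5.74 CPM (wild-type replicate 2) and 6.65 CPM (wild-type replicate 1).

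Among the interneuron members, flp-14 and flp-1 had means of 47.5 and 43.6 CPM per kilobase of exon, ranks 4 and 5 of the family. The levels of flp-1, made in the AVK interneurons and needed for normal locomotion, were 5.56, 34.4 and 0.44 CPM in mec-8 libraries and 59.2, 49.0 and 31.2 CPM in wild-type libraries. Mec-8 replicate 2 was above wild-type replicate 3, so the genotypes overlapped in CPM. For flp-12, made in the SMB motor neurons among others, the levels were 3.63, 10.6 and 18.7 CPM in mec-8 libraries and 118, 8.64 and 9.98 CPM in wild-type libraries. Of the 8 members with the highest mean CPM, flp-12 was the only one whose mec-8 level was highest in replicate 3. The levels of flp-14, which is expressed in many neurons, were 16.5, 15.1 and 0.18 CPM in mec-8 libraries and 75.7, 17.7 and 10.6 CPM in wild-type libraries. For flp-16, 12.4, 6.35 and 3.57 CPM were found in mec-8 libraries and 31.04, 3.59 and 1.37 CPM in wild-type libraries, so the wild-type libraries held both the highest and the lowest level. Of the ligands of the NPR-1 and NPR-4 receptors, flp-18 was at 0.997, 10.6 and 5.46 CPM in mec-8 libraries and 2.63, 12.5 and 2.15 CPM in wild-type libraries, whereas the NPR-1 ligand flp-21 was between 0 and 0.51 CPM in every library. The wake-promoting flp-2 lay between 0.27 and 5.49 CPM in mec-8 libraries and between 2.54 and 10.9 CPM in wild-type libraries.

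The chemosensory gene flp-6, made in ASE, had 5.26, 8.30 and 0 CPM in mec-8 libraries and 2.25, 14.2 and 2.02 CPM in wild-type libraries, and had the widest spread of log2 CPM, with a standard deviation of 3.43. The highest levels of flp-22 and flp-32, 12.2 and 7.96 CPM, were in wild-type replicate 2. Those of flp-3 and flp-7, 4.15 and 6.30 CPM, came from wild-type replicate 1, and that of flp-26, 3.20 CPM, did too. Another pattern was seen for 2 genes that were high in mec-8 replicate 1 alone. The levels of flp-25 were 14.3, 0.23 and 0 CPM in mec-8 libraries and 1.60, 1.83 and 0.26 CPM in wild-type libraries, and those of flp-34 were 18.3, 0.89 and 0.66 CPM in mec-8 libraries and 1.25, 1.58 and 3.98 CPM in wild-type libraries.

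Many members were highest, or lowest, in the same libraries. Of the 30 flp genes with at least 2 counts in all, 19 (63.3%) had their highest CPM in wild-type replicate 1, where 17.2% of all genes with at least 2 counts did. Of the others, mec-8 replicate 1 was the highest library for 4 and wild-type replicate 2 for 7. Set against touch neuron marker counts, 1 of the 30 was highest in wild-type replicate 1. That library had the largest marker sum, 14706 CPM, which lowers any gene there on this scale. The share of all genes on this scale was not taken, so no conclusion is drawn from this count. At the other end, 20 members had their lowest CPM in mec-8 replicate 3, a count for which no share of all genes was taken. Of the 30, 9 were at 0 there: flp-4, flp-6, flp-7, flp-13, flp-17, flp-20, flp-21, flp-25 and flp-33. This share, 30%, was near the 38.6% of all genes that were at 0 in that library.

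Markers of other neuron types were read beside these levels. The 19 marker genes of BAG, URX with AQR and PQR, AFD, ASE, AWC with AWB, RIS and ALA neurons summed to 39.5, 8.01 and 0 CPM in mec-8 replicates 1, 2 and 3, against 18.4, 23.2 and 19.8 CPM in wild-type replicates 1, 2 and 3. The number of them at 0 was 8, 6 and 19 in the mec-8 libraries and 15, 2 and 3 in the wild-type libraries. In mec-8 replicate 3, therefore, none of the 19 had a count, while flp-9 had 27.4 CPM, flp-12 had 18.7 CPM, flp-5 had 10.4 CPM, flp-18 had 5.46 CPM and flp-15 had 4.89 CPM. The 19 do not cover the sources named above for flp-12, flp-5 and flp-15. In that library the 4 cholinergic markers summed to 8.63 CPM, with 2 of them at 0. The 3 dopaminergic markers summed to 0.04 CPM and the 2 serotonergic markers to 0 CPM there. In wild-type replicate 1 all 3 BAG markers (gcy-9, gcy-31 and gcy-33) were at 0 while flp-17 was at 1.90 CPM and flp-19 at 65.5 CPM. The RIS marker aptf-1 and the ALA marker ceh-17 were also at 0 there, while flp-11 was at 13.6 CPM and flp-13 at 1.12 CPM. Of the 4 markers of URX, AQR and PQR, gcy-34 and gcy-36 were at 0 in that library, gcy-32 was at its highest level, 9.41 CPM, and gcy-37 was at 2.68 CPM, below its 5.98 CPM in mec-8 replicate 1 and its 3.44 and 6.06 CPM in wild-type replicates 2 and 3.

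Markers of GABAergic and tyraminergic neurons were read as well, and unc-25, unc-30, tdc-1 and tbh-1 had counts in all 6 libraries. The other GABAergic markers did not. For unc-47 the level was 0 in wild-type replicate 1, and for snf-11 it was 0 in mec-8 replicate 3 and 0.13 CPM in wild-type replicate 1. The GABA-synthesising enzyme gene unc-25 was at 231, 135 and 90.0 CPM in mec-8 libraries and 56.8, 173 and 310 CPM in wild-type libraries. The tyramine synthesis gene tdc-1 was at 29.9, 21.01 and 12.5 CPM in mec-8 libraries and 206, 19.1 and 24.7 CPM in wild-type libraries and was highest in wild-type replicate 1. The other marker of its list, the octopamine synthesis gene tbh-1, was highest in mec-8 replicate 1, with 37.02, 2.18 and 4.89 CPM in mec-8 libraries and 14.03, 0.07 and 1.30 CPM in wild-type libraries. The part of these other cells in the flp levels was not tested.

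The second question was whether flp RNA differed between the genotypes. As a share of all reads on genes, flp genes made up 0.0186%, 0.0280% and 0.00842% in mec-8 replicates 1, 2 and 3, against 0.0816%, 0.0358% and 0.0239% in wild-type replicates 1, 2 and 3. The means were 0.0183% ± 0.00978 in mec-8 libraries and 0.0471% ± 0.0304 in wild-type libraries (SD, n = 3 each), and an exact two-sided permutation test gave p = 0.2, where 3 against 3 cannot go below 0.1. Wilson intervals at 95%, which cover counting error only, were narrow beside these differences: 0.00805% to 0.00880% for the lowest library, mec-8 replicate 3, and 0.0804% to 0.0828% for the highest, wild-type replicate 1. On this scale the groups overlapped because mec-8 replicate 2 was above wild-type replicate 3. The difference of −0.0288 percentage points was −0.0115 without wild-type replicate 1. Over TMM-scaled library sizes, which the gene-by-gene test uses, the groups did not overlap. The difference there was −0.0273 percentage points, with p = 0.1 by the same exact permutation test, the smallest it can give.

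Relative to pan-neuronal RNA the groups did not overlap either. Counts on flp genes were 38.3%, 202% and 102% of the counts on the 8 pan-neuronal markers in mec-8 libraries, against 723%, 281% and 336% in wild-type libraries, with p = 0.1 by the same exact permutation test, the smallest it can give. With unc-104 left out of the markers, the values were 99.3%, 259% and 124% in mec-8 libraries and 937%, 382% and 648% in wild-type libraries, again with p = 0.1 by exact permutation. The pan-neuronal markers ran the other way, as 8 of 8 had a positive log2 fold change in mec-8 over wild type, with a median of 1.14 and 0 past the threshold. Their part in the ratio cannot be told apart from that of the flp genes.

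**Figure D3:**
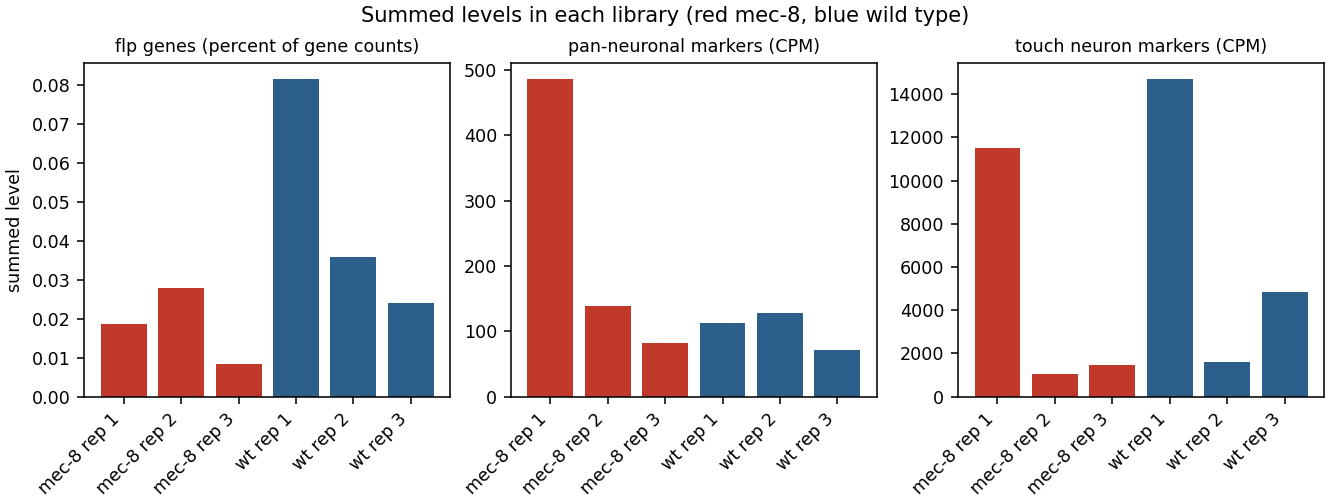
Summed level of the 31 flp genes (percent of reads on genes), of the 8 pan-neuronal markers (CPM) and of the 10 touch neuron markers (CPM) in each library, mec-8 in red on the left and wild type in blue on the right. Replicate 1 of both genotypes is high in touch neuron markers, but only in wild type is it high in flp genes, at 0.0816%.

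Gene by gene, the quasi-likelihood test of edgeR (Benjamini-Hochberg adjustment) called 0 of the 28 flp genes tested at an adjusted p under 0.05, as it called 0% of all 14614 genes tested. The 3 genes not tested, flp-21, flp-23 and flp-33, were too low to pass the filter. DESeq2 also called 0 flp genes, where it called 0.278% of all genes to which it gave an adjusted p. It gave no p to flp-20 and flp-25, so these could not be called. An unadjusted DESeq2 p under 0.05 was found for 2 flp genes, flp-8 among them. Of all 46726 identifiers, of which 24600 had a count, 1138 had such a p. At an unadjusted edgeR p under 0.05, 1 of 28 was lower in mec-8, flp-8, where 0.349% of all genes were, and 0 were higher, where 2.87% of all genes were. Standard errors of the log2 fold changes of flp genes were between 0.65 and 2.23.

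The fitted values leaned to one side. Of the 28 tested, 25 had a log2 fold change below 0 in mec-8 over wild type, where 49.5% of all genes tested did. The median was −1.36 for the flp genes and 0.01 for all genes tested, and the values lay between −2.83 and 2.38. Without wild-type replicate 1, 21 of 28 were below 0 and the median was −0.72. The 3 above 0 were flp-25, flp-27 and flp-34. Under upper-quartile normalization, which moved the median of all genes by more than 0.1, to −0.11, the median of the flp genes was −1.52.

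**Figure D4:**
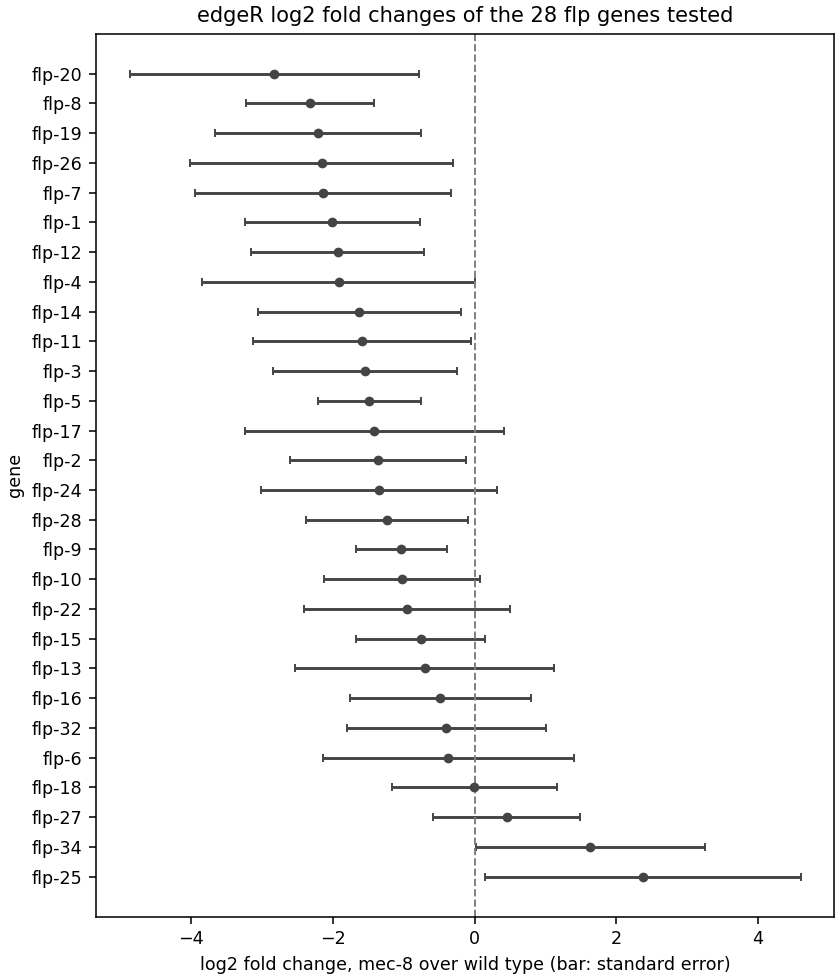
Log2 fold change in mec-8 over wild type from edgeR (x axis) for the 28 flp genes tested (rows, from lowest to highest), with bars of 1 standard error. The points run between −2.83 (flp-20) and 2.38 (flp-25), and 25 lie left of 0.

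In CPM, every mec-8 library was below every wild-type library for 2 of the 28 genes (7.14%), flp-8 and flp-9, where 1.49% of all genes tested showed this. The opposite order was found for 0 of 28, where 5.50% of all genes showed it. These CPM lack the TMM scaling used for the log2 fold changes, and the count depends on that choice. Over TMM-scaled library sizes flp-1, flp-10, flp-15 and flp-19 separated too, in the same direction. The share of all genes was not taken on that scale. For flp-8 the log2 fold change was −2.33 (standard error 0.90), with an edgeR p of 0.0352 and an adjusted p of 1.0. Its mean levels were 14.6 ± 11.5 CPM in mec-8 libraries and 71.4 ± 46.7 CPM in wild-type libraries (SD, n = 3 each). For flp-9 the log2 fold change was −1.03 (standard error 0.65, edgeR adjusted p = 1.0), with mean levels of 35.8 ± 7.33 CPM in mec-8 libraries and 76.7 ± 41.2 CPM in wild-type libraries. Without wild-type replicate 1 the log2 fold changes were −1.74 for flp-8 and −0.60 for flp-9, so that for flp-9 the difference shrank to the size of its standard error, 0.67.

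For flp-20 the log2 fold change was −2.83 (standard error 2.05, edgeR adjusted p = 1.0), the largest in size of the family, but it was 0.06 without wild-type replicate 1. Its mean levels were 1.24 ± 1.45 CPM in mec-8 libraries and 10.5 ± 15.9 CPM in wild-type libraries (SD, n = 3 each; exact two-sided permutation p = 0.5). The largest value in the other direction, 2.38 for flp-25 (standard error 2.23, edgeR adjusted p = 1.0), also rested on a single library, since it was −3.77 without mec-8 replicate 1. For neither gene was the difference larger than the spread between libraries.

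**Figure D5:**
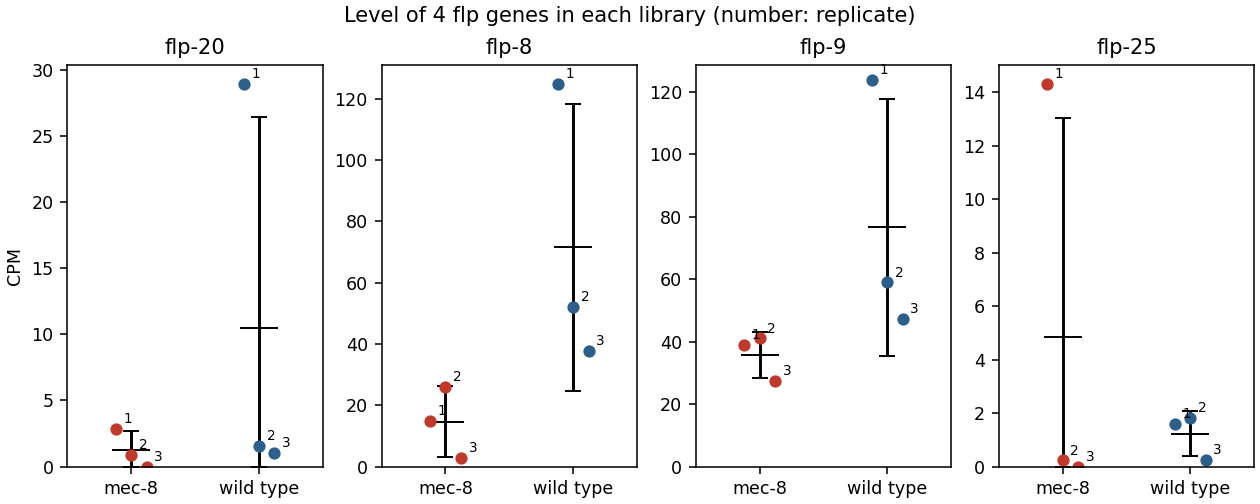
CPM of flp-20, flp-8, flp-9 and flp-25 in each library, mec-8 in red on the left and wild type in blue on the right, with replicate numbers at the points, the mean as a long bar and 1 SD (cut at 0) as the error bar. Only flp-8 and flp-9 have all mec-8 points below all wild-type points. Wild-type replicate 1, at 28.9 CPM, sets the mean of flp-20, as mec-8 replicate 1, at 14.3 CPM, sets that of flp-25.

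Of 18 genes that turn FLP propeptides into released peptides, all 18 were tested and 0 passed the threshold, with 5 log2 fold changes below and 13 above 0 and a median of 0.32. None of the 18 had an unadjusted edgeR p under 0.05. The proprotein convertase gene egl-3 was at 101, 39.99 and 7.22 CPM in mec-8 libraries and 89.0, 34.9 and 46.1 CPM in wild-type libraries. The carboxypeptidase gene egl-21 was at 349, 110 and 78.4 CPM in mec-8 libraries and 484, 79.0 and 261 CPM in wild-type libraries. For sbt-1, the 7B2 chaperone of EGL-3, the levels were 437, 118 and 104.2 CPM in mec-8 libraries and 430, 120 and 185 CPM in wild-type libraries. These 3 genes were highest in replicate 1 of both genotypes, as the sum of the touch neuron markers was, and overlapped between genotypes.

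The cutting, trimming and amidation genes, 8 in number, split evenly (4 below and 4 above 0, median −0.04), while 9 of the 10 genes of dense-core vesicle making and release were above 0 (median 0.81). Among the 8, aex-5, a convertase known from intestine and muscle, stood apart with 80.1, 1273 and 4470 CPM in mec-8 libraries and 159, 557 and 177 CPM in wild-type libraries. The intestinal metallothionein gene mtl-2 was likewise highest in mec-8 replicate 3, at 68.9, 125 and 1576 CPM in mec-8 libraries and 126, 41.4 and 2.80 CPM in wild-type libraries. Of the other intestine markers, elt-2 was also highest in mec-8 replicate 3, at 57.8 CPM. The marker ges-1 was instead highest in mec-8 replicate 1, at 72.8 CPM, against 22.1 CPM in mec-8 replicate 3. The part of intestinal RNA in the aex-5 level was not tested.

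Of 14 receptor genes of FLP peptides, 7 were abundant enough to test, and 0 passed the threshold or had an unadjusted edgeR p under 0.05. The FLP-20 receptor gene frpr-3 had 0, 1.06 and 0 CPM in mec-8 libraries and 0, 0 and 0.26 CPM in wild-type libraries. For egl-6, the receptor of FLP-10 and FLP-17, the levels were 0.45, 0.63 and 0 CPM in mec-8 libraries and 4.53, 1.004 and 1.63 CPM in wild-type libraries. For npr-22, the receptor through which FLP-7 acts on fat, they were 2.48, 2.61 and 1.98 CPM in mec-8 libraries and 1.17, 0 and 0.65 CPM in wild-type libraries. For egl-6 every mec-8 library was below every wild-type library, and for npr-22 every mec-8 library was above, orders that 1.49% and 5.50% of all genes tested showed.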

How the data were processed

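Sorted GFP-positive touch neurons of 2 genotypes, with 3 biological replicates each by the study's methods, were sequenced as polyA RNA. The deposited values are raw counts per gene, which the authors made with HTSeq from paired reads that STAR had aligned to the WBcel235 genome. The strand setting and annotation release of the counting are not given in the sources used here. Unassigned reads stayed out of library sizes. Symbols, coordinates and exon lengths came from the Ensembl annotation of that genome, in which 46364 identifiers were found.

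Levels are CPM over reads on genes. Log2 CPM used a prior count of 0.5. Genotypes were compared over all genes with edgeR 4.0.16 in R 4.3.3 (quasi-likelihood test, TMM, filterByExpr by genotype, Benjamini-Hochberg adjustment, threshold 0.05). Standard errors were obtained by dividing the size of each log2 fold change by the root of its F statistic. The fits were tested on simulated counts. The comparison was repeated with DESeq2 1.42.0 and with limma 3.58.1 (voom, quality weights), with upper-quartile or plain library-size scaling, with no filter or a minimum of 10 counts throughout, with a replicate block, and leaving out each library. Sums were compared by exact permutation. Limits from 0 counts (3 counts) cover counting error only.

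The family and the lists were chosen with earlier results of these data known. Per-library levels are printed for flp-20, the steady members, the 8 with the highest mean CPM and those with a printed log2 fold change,. Log2 fold changes are printed for flp-20, members with an unadjusted p under 0.05, members whose genotypes do not overlap and the 3 largest. Other levels were chosen after they were seen.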

Additional observations from a re-analysis of the deposited data

How the results depend on the processing

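No flp gene, processing gene or receptor gene passed the threshold under any alternative that was run. Not every member was tested in each: DESeq2 gave no p to flp-20 and flp-25, and the minimum of 10 counts throughout left 13 flp genes, without flp-20 and flp-25. The median log2 fold change of the flp genes stayed below 0 in all alternatives, between −1.79 and −0.72 with single libraries left out. The median of all genes tested moved too, between −0.31 (without mec-8 replicate 1) and 0.10 (without wild-type replicate 1). Without mec-8 replicate 2, where the flp median was −1.79, that of all genes was −0.16. The flp-20 log2 fold change lay between −4.99 and 0.055 with single libraries left out, and was above 0 only without wild-type replicate 1. The flp-25 log2 fold change turned to −1.89 with a replicate block, to −1.30 with limma voom and to −3.77 without mec-8 replicate 1, and leaving out single libraries gave −3.77 to 3.02. For flp-8 the log2 fold change stayed below 0 throughout, but its unadjusted edgeR p did not stay under 0.05. It was 0.0517 with plain library-size scaling, 0.0579 without mec-8 replicate 2, 0.0670 without mec-8 replicate 3 and 0.109 without wild-type replicate 1. The number of flp genes counted in every library was 20 at a minimum of 1 count and 13 to 23 with single libraries left out. The number of steady members was 2 with a limit of 5 times, 2 over pan-neuronal markers and 6 to 10 with single libraries left out. The spread of flp-20 lay between 2.04 and 3.85 with single libraries left out. Added after the data were seen, the number of members highest in wild-type replicate 1 over touch neuron marker counts was 1, on a scale where that library has the largest marker sum. The counts did not show a pairing by replicate number throughout. Deviations of same-numbered samples correlated at 0.06, 0.47 and −0.17, and replicate 2 alone correlated best with its own number. Deviations from a mean of 3 libraries are tied to one another, so these values cannot settle whether samples were paired. With the replicate block 0 flp genes passed the threshold and their median was −1.45. The depth, with 3 counts worth up to 0.20 CPM, limits statements on members under about that level, and the spread between 3 libraries limits all comparisons of genotype.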
